A study of Triticum aestivum with 58 samples.

Results

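The genes described here are the wheat homoeologues named BRi1 and SERK1 in the study's list of root architecture genes. They were found in the count tables by the gene identifiers of that list, 6 genes of the 120744 listed, a rule that uses names and no measured value, although earlier results of these data were known when these genes were taken up. BRi1 was represented by TraesCS3A02G245000 (BRi1_3A), TraesCS3B02G275000 (BRi1_3B) and TraesCS3D02G246500 (BRi1_3D). SERK1 was represented by TraesCS2A02G343100 (SERK1_2A), TraesCS2B02G340700 (SERK1_2B) and TraesCS2D02G321400 (SERK1_2D). The letters A, B and D stand for the subgenomes of hexaploid bread wheat, and homoeologues are the copies of a gene that the subgenomes carry. All 6 genes passed the filter on low counts in every main comparison. Among the alternatives, BRi1_3B fell out of the leaf-against-root and leaf cultivar fits that asked for at least 10 counts throughout. The libraries came from leaf and from root of untreated seedlings of 24 spring wheat cultivars released in Pakistan over about a century, 66 leaf and 69 root libraries, with 1 to 3 libraries per cultivar in leaf and 2 or 3 in root. A further 16 leaf and 12 root libraries of other cultivars were kept apart from the main comparisons and entered only alternatives with all deposited cultivars. The cultivars were the lines as released, with no transgene, and a bulk tissue library mixes all the cell types of the organ, so that fewer cells of a type and less RNA per cell cannot be told apart.

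Brassinosteroids are plant steroid hormones that promote cell elongation and division. In Arabidopsis, BRI1 is a receptor kinase of the plasma membrane with leucine-rich repeats outside the cell, where it binds the hormone. SERK1 is a shorter receptor kinase of the same kind that joins hormone-bound BRI1 as a co-receptor, after which the kinases phosphorylate each other and a relay inside the cell activates the transcription factors of the pathway. In Arabidopsis the SERK proteins also serve other receptors, and brassinosteroid signalling is known for setting the size of the root meristem and the elongation of leaf and root cells.

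The libraries held between 8111979 and 11212584 counted reads each, so a level of 1 tpm (a transcript share per gene length, scaled to the same sum in each library) rested on few reads. The labelled tissues separated on marker genes. The 15 genes of root hairs and lateral roots summed to 0 to 0.361 tpm in leaf and 3.74 to 36.1 tpm in root libraries. The 3 PpD genes summed to 11.5 to 99.6 tpm in leaf and 0 to 1.95 tpm in root libraries. The paper reports from these data that these root genes were not expressed in leaf, and names the Ppd genes as exceptions in root. The markers are thus no independent check of the tissue labels. The cultivar names were less secure. Over 229 genes that are either on or off in a library, 6 of 65 leaf libraries shared at least 97% of states with a second leaf library of the same cultivar, and 41 of 69 root libraries did so with a second root library. Some root libraries reached 97% only with root libraries of other names. Replicate 1 of C-217 shared at most 78.2% with its own name and 99.55% with another, and replicate 3 of C-271 at most 93.2% and 97.75%. Replicate 1 of Chakwal-97 shared 100% with its own and with another name. Agreement within a name thus does not single out that name. Of the 66 leaf libraries, 3 matched root libraries of their own name, 47 matched root libraries of other names only and 16 matched none. Statements on leaf and root cultivars below therefore concern names as labelled. The only leaf library of Chakwal-97 had almost no reads across chromosome 3B, with a median log2 deviation of -4.20 over its genes, and BRi1_3B was given with and without it. The libraries of a cultivar are taken as its replicates because seeds were sown in triplicate. Tests between cultivars set differences between names against the spread between libraries of a name. That spread includes pairs unlike in on or off states. Outside chromosome 2B, 58 leaf and 33 root pairs of a name shared under 97%, while 3 and 33 pairs shared at least 97%.

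The BRi1 genes were expressed at a low level in leaf and at a moderate level in root. BRi1_3A had 0.542, 1.61 and 6.50 tpm in the lowest, median and highest leaf library, against 10.5, 14.6 and 21.1 tpm in the lowest, median and highest root library. BRi1_3B had 0.0371, 0.950 and 3.01 tpm in the same order in leaf libraries, against 8.26, 11.005 and 15.9 tpm in root libraries. BRi1_3D had 0.700, 1.62 and 4.77 tpm in leaf libraries, against 9.36, 13.4 and 19.2 tpm in root libraries. For each of the 3 receptor genes, all 66 leaf libraries were below the lowest of the 69 root libraries, a separation shown by 14.4% of all genes tested. The lowest BRi1_3B value in leaf was that of the Chakwal-97 library, a single read. Read counts in leaf were small in general, with medians over all 66 libraries of 45.5 reads for BRi1_3A, 24 for BRi1_3B and 50.5 for BRi1_3D, whereas no root library had fewer than 299, 196 and 256 reads of these genes.

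**Figure D1:**
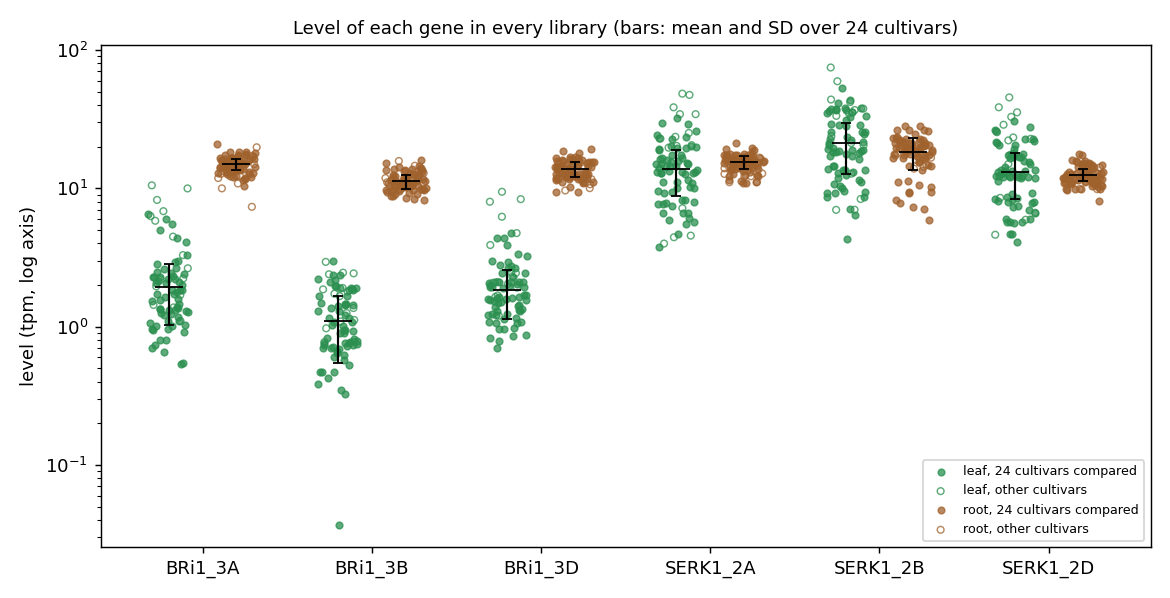
Level of each gene in tpm (log axis) in every library, leaf left of root for each gene, with filled points for the 24 cultivars compared, open points for the other cultivars, and bars for the mean and SD over the 24 cultivars. The filled leaf points of the BRi1 genes reach 6.50 tpm at most and lie below all root points of the same gene, while leaf and root points of the SERK1 genes overlap.

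Over 24 cultivars the mean level of BRi1_3A was 1.93 ± 0.912 tpm for leaf, against 14.97 ± 1.43 tpm for root. That of BRi1_3B was 1.10 ± 0.556 tpm for leaf, against 11.3 ± 1.31 tpm for root, and that of BRi1_3D was 1.85 ± 0.710 tpm for leaf, against 13.7 ± 1.72 tpm for root (SD, n = 24 each). The mean root level was thus 7.74, 10.3 and 7.42 times the leaf level for BRi1_3A, BRi1_3B and BRi1_3D, and every one of the 24 cultivar names had the lower value in leaf. In edgeR's quasi-likelihood test of leaf against root all 3 passed an adjusted p of 0.1 in the direction of lower expression in leaf, as 47.6% of all 62747 genes tested did. The log2 fold change, leaf over root, was -1.86 (SE 0.14) for BRi1_3A with an adjusted p of 2.4e-17, -2.31 (SE 0.16) for BRi1_3B with 7.7e-19, and -1.83 (SE 0.11) for BRi1_3D with 2.9e-21. Without Chakwal-97 the value of BRi1_3B was -2.26 (SE 0.13). The fold changes of this fit are smaller than the ratios of tpm because TMM scaling (edgeR's weighting by the trimmed mean of gene ratios) gave leaf samples factors of 0.548 to 0.924 and root samples factors of 1.31 to 1.47.

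The SERK1 genes were expressed at similar tpm levels in both tissues. SERK1_2A had 3.74, 13.3 and 32.4 tpm in the lowest, median and highest leaf library and 11.005, 15.7 and 21.1 tpm in the lowest, median and highest root library. SERK1_2B, the most abundant of the 6 genes, had 4.28, 18.8 and 53.0 tpm in leaf libraries and 5.90, 19.3 and 28.4 tpm in root libraries. SERK1_2D had 4.12, 12.4 and 30.5 tpm in leaf libraries and 8.07, 12.1 and 17.6 tpm in root libraries. The tissues overlapped for all 3 co-receptor genes, with leaf libraries spread to both sides of the root libraries. The means over 24 cultivars were 13.8 ± 5.06 tpm for leaf against 15.4 ± 1.62 tpm for root (SERK1_2A), 21.1 ± 8.47 tpm for leaf against 18.3 ± 4.71 tpm for root (SERK1_2B), and 13.2 ± 4.87 tpm for leaf against 12.5 ± 1.29 tpm for root (SERK1_2D; SD, n = 24 each). Of the 24 cultivar names, 8, 14 and 13 had the higher value in leaf for SERK1_2A, SERK1_2B and SERK1_2D.

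For SERK1 the direction between tissues depended on the scaling. With TMM all 3 genes were higher in leaf in edgeR's test, as 40.3% of all genes tested were, with log2 fold changes of 0.89 (SE 0.09, adjusted p 5.5e-13) for SERK1_2A, 1.25 (SE 0.13, adjusted p 3.2e-12) for SERK1_2B and 1.12 (SE 0.09, adjusted p 5.4e-16) for SERK1_2D. With library sizes alone edgeR gave -0.07, 0.29 and 0.16 in the same order, and only SERK1_2B passed, with an adjusted p of 0.052, where 22.5% of all genes passed as higher and 70.1% as lower in leaf. On log2(tpm + 1), limma gave -0.21, 0.14 and -0.01, and only SERK1_2A passed, as lower in leaf with an adjusted p of 0.046, where 21.1% of all genes passed as higher and 72.0% as lower in leaf. The median of all genes shifted with these choices, at -0.14 with TMM, -1.12 with library sizes alone and -0.82 with limma. Relative to that median, SERK1_2A lay 0.60 to 1.18, SERK1_2B 0.96 to 1.47 and SERK1_2D 0.81 to 1.38 log2 units above it over all 16 fits of this comparison. BRi1_3A lay from -2.04 to -1.47, BRi1_3B from -2.26 to -1.77 and BRi1_3D from -2.01 to -1.49 log2 units relative to it over the fits that included them. The receptor genes were lower in leaf and passed the threshold under every scaling.

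**Figure D2:**
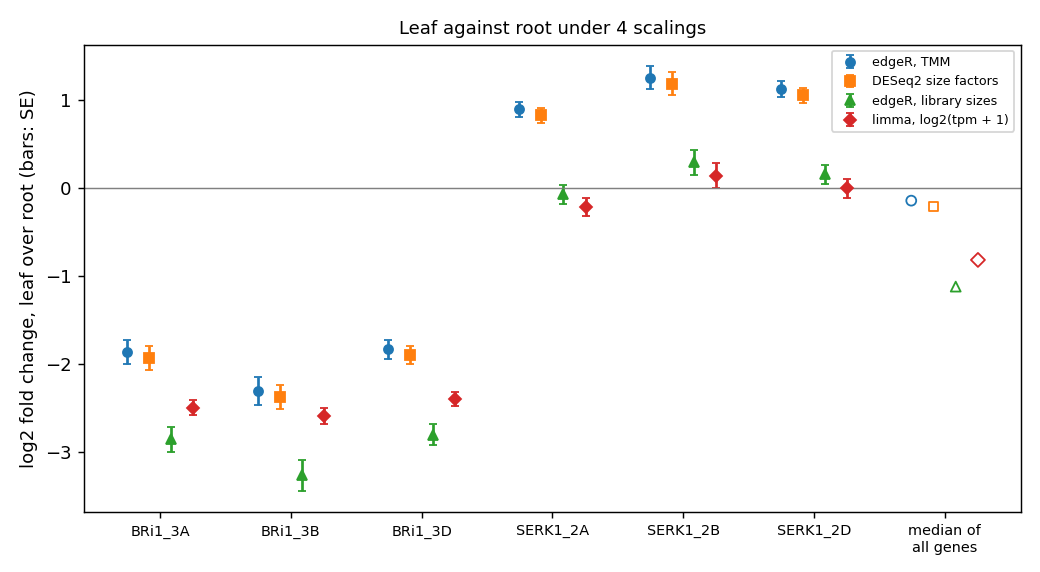
Log2 fold change of each gene, leaf over root, with its SE under 4 scalings, and as open symbols the median over all genes tested under the same scaling. The BRi1 values lie between -3.26 and -1.83 throughout, while the SERK1 values lie between 0.82 and 1.25 with TMM or DESeq2 size factors and between -0.21 and 0.29 with library sizes or tpm.

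A ratio of genes within a library does not depend on the scaling between libraries. The summed level of the 3 BRi1 genes was 4.88 ± 1.83 tpm for leaf against 40.0 ± 3.90 tpm for root, and that of the 3 SERK1 genes was 48.2 ± 17.6 tpm for leaf against 46.2 ± 6.40 tpm for root (SD, n = 24 each). The geometric mean ratio of BRi1 to SERK1 transcripts was 0.101 in leaf, against 0.869 in root, where receptor and co-receptor transcripts were at nearly equal levels. The log2 ratio was lower in leaf by 3.10 (mean difference -3.10, with SDs of 0.679 in leaf and 0.245 in root), which is an 8.58-fold higher ratio in root. The permutation test gave an unadjusted p of 2.0e-05, the smallest that 100000 resamples could give, and an adjusted p of 4.67e-05 over 7 ratios. The difference ranged from -3.11 to -3.06 over 8 alternatives. Across cultivars the summed levels of BRi1 and SERK1 did not vary together detectably. Pearson's r between their log2 levels was 0.184 in leaf (permutation p 0.391, adjusted 0.463, rho 0.217 with permutation p 0.309 and adjusted 0.333) and 0.0558 in root (permutation p 0.796, adjusted 0.796, rho -0.0296 with permutation p 0.893 and adjusted 0.893).

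**Figure D3:**
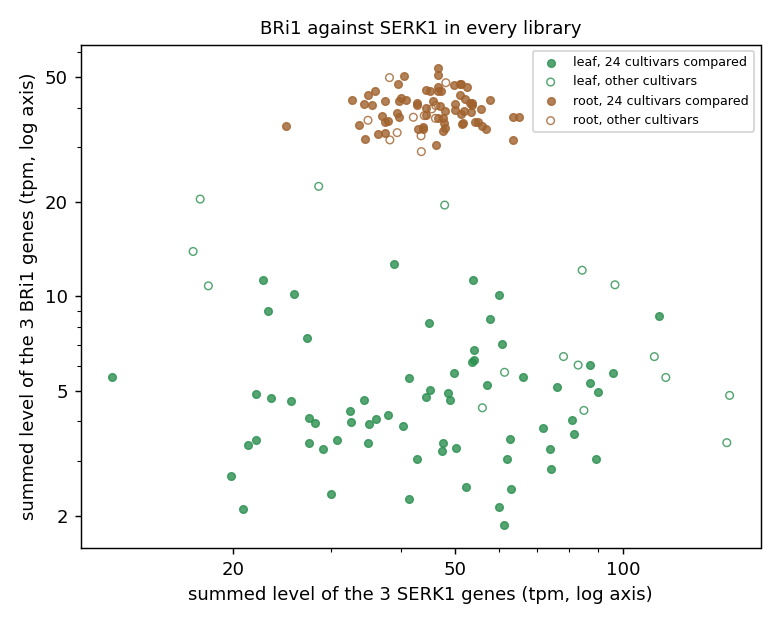
Summed tpm of the 3 BRi1 genes against summed tpm of the 3 SERK1 genes in every library (log axes), with open points for cultivars outside the 24 compared. Leaf and root libraries separate on the BRi1 axis and overlap on the SERK1 axis, where leaf libraries spread from 12.1 to 116 tpm among the 24 cultivars and root libraries from 24.97 to 65.1 tpm.

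Ordered by mean tpm, the leaf levels ran SERK1_2B, SERK1_2A, SERK1_2D, BRi1_3A, BRi1_3D and BRi1_3B. Only BRi1_3A and BRi1_3D did not differ beyond their spread as neighbours in that order, with an adjusted p of 0.753 in a permutation of signs within cultivars over 10 neighbouring pairs. The difference between SERK1_2A and SERK1_2D was small but past the threshold, with an adjusted permutation p of 0.00636 and SERK1_2A the higher in 16 of 24 cultivars. In root the order was SERK1_2B, SERK1_2A, BRi1_3A, BRi1_3D, SERK1_2D and BRi1_3B. SERK1_2A and BRi1_3A did not differ beyond their spread (adjusted permutation p 0.323), and SERK1_2B was above SERK1_2A in 20 of 24 cultivars with an adjusted permutation p of 0.0544. The other root neighbours differed with adjusted permutation p-values of at most 0.0348. BRi1_3B was the lowest of the 6 genes in both tissues.

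Among the receptor homoeologues, BRi1_3B took a smaller part of the BRi1 total in leaf than in root. Its share averaged 22.6% ± 8.14 in leaf and 28.3% ± 2.15 in root (SD, n = 24 each), and over single libraries it ran from 0.738% (Chakwal-97) to 44.2% in leaf and from 22.1% to 35.4% in root. BRi1_3A averaged 39.3% ± 7.92 in leaf and 37.5% ± 1.51 in root, and BRi1_3D averaged 38.1% ± 5.69 in leaf and 34.3% ± 1.73 in root. The ratio of BRi1_3B to BRi1_3D was lower in leaf by 0.66 log2 units (mean difference -0.66, adjusted permutation p 4.67e-05), or by 0.43 (mean difference -0.43, adjusted permutation p 3.27e-04) without Chakwal-97. The ratio of BRi1_3A to BRi1_3B was higher in leaf by 0.56 log2 units (adjusted permutation p 0.0152). This difference was 0.34 without Chakwal-97 (adjusted permutation p 0.0373) and 0.22 without replicate 2 of every cultivar (adjusted permutation p 0.180). The ratio of BRi1_3A to BRi1_3D differed by -0.10, leaf minus root, which did not pass over cultivars (adjusted permutation p 0.267) and passed with each library taken on its own, at -0.15 (adjusted permutation p 0.0312). Homoeologues share long stretches of sequence, and how reads that align equally well to more than one of them were counted is not given in the sources used here, so the shares carry that uncertainty.

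Among the co-receptor homoeologues, SERK1_2B averaged 43.5% ± 6.32 of the SERK1 total in leaf and 38.9% ± 6.34 in root (SD, n = 24 each). SERK1_2A averaged 29.001% ± 3.63 in leaf and 33.7% ± 4.51 in root, and SERK1_2D averaged 27.5% ± 3.01 in leaf and 27.3% ± 2.23 in root. The ratio of SERK1_2A to SERK1_2B was lower in leaf (mean log2 difference -0.38, adjusted permutation p 0.00476), as was that of SERK1_2A to SERK1_2D (mean log2 difference -0.22, adjusted permutation p 4.67e-05). The ratio of SERK1_2B to SERK1_2D differed by 0.16 with an adjusted permutation p of 0.174 over cultivars, and by 0.17 with an adjusted permutation p of 0.0312 over single libraries. Libraries of 1 cultivar are not independent, so the p-values over single libraries are too small.

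Between cultivars, root levels differed for 5 of the 6 genes, all but SERK1_2D, in edgeR's quasi-likelihood test over 69 root libraries of 24 cultivars. This is a common result in these libraries, since 83.6% of all 64317 genes tested passed the same threshold. SERK1_2B differed most, with an adjusted p of 9.6e-08, ahead of BRi1_3D (1.0e-04), BRi1_3B (0.00138), BRi1_3A (0.00935) and SERK1_2A (0.0246). SERK1_2D had an adjusted p of 0.271. Its coefficient of variation over cultivars was 10.3%, close to the 9.57% to 12.5% of the other genes except SERK1_2B, which had 25.8%. Without replicate 1, BRi1_3A and SERK1_2A no longer passed (adjusted p 0.204 and 0.159), and without replicate 3 SERK1_2A did not (adjusted p 0.373).

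The lowest mean SERK1_2B levels in root were those of a few cultivars. T-9, the landrace that is the oldest release of the panel, had 7.84, 7.37 and 9.22 tpm of SERK1_2B in its 3 root libraries. C-518 had 8.27, 11.3 and 7.12 tpm and C-271 had 10.6, 9.43 and 9.42 tpm. All 3 cultivars lay below the median root library, which had 19.3 tpm, in each of their libraries. Inquilab-91, the cultivar with the highest mean, had 25.8 and 23.3 tpm. As a share of all SERK1, SERK1_2B made up 20.7% to 23.4% in T-9, 21.7% to 30.2% in C-518 and 25.2% to 29.1% in C-271, whereas no root library of the other 21 cultivars was under 35.9% except replicates 1 and 2 of Maxipak-65, with 27.6% and 23.6%, and replicate 3 of C-217, with 32.3%. The highest share was 48.8%, in replicate 1 of Rawal-87. In T-9, SERK1_2A had 15.4, 16.3 and 17.3 tpm and SERK1_2D had 10.4, 11.9 and 12.8 tpm, within the range of the other cultivars. Replicate 2 of Maxipak-65 was low in the partner genes too, with 11.005 tpm of SERK1_2A, next to the lowest root library, and 8.07 tpm of SERK1_2D, the lowest of the 69.

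**Figure D4:**
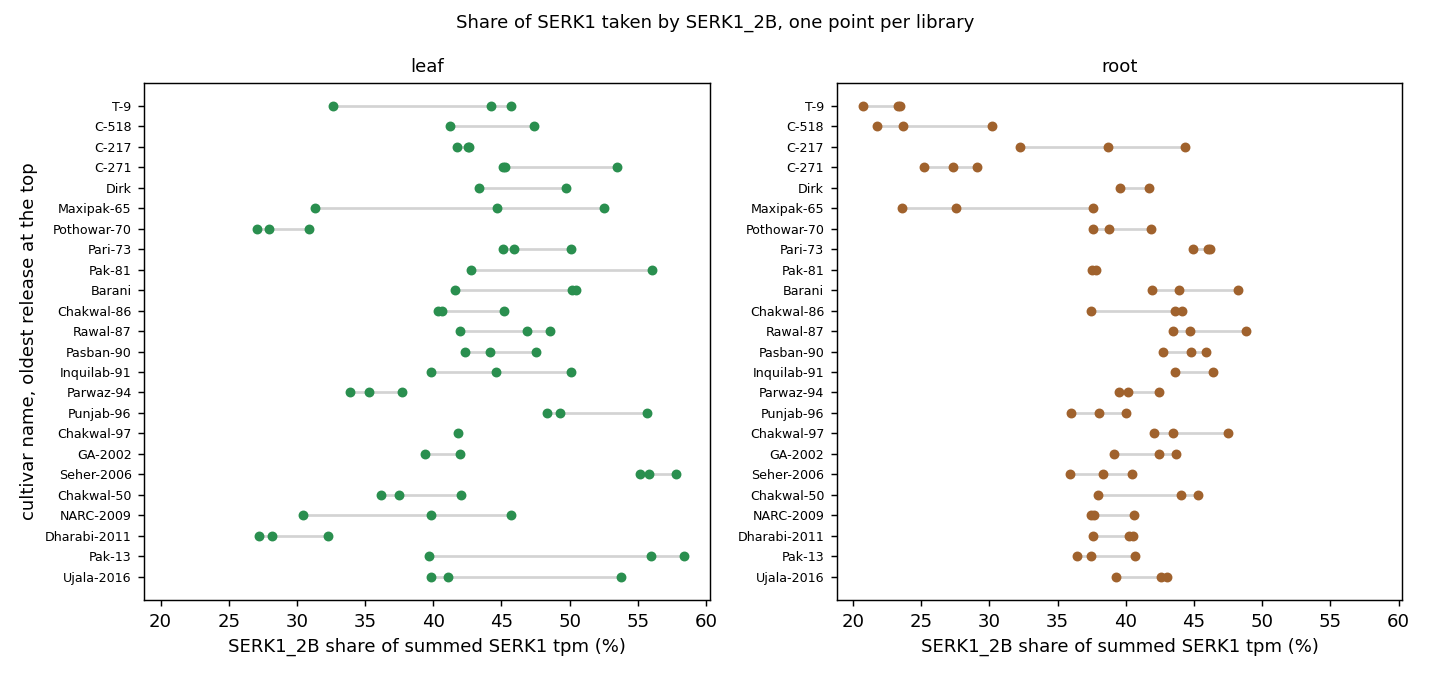
Share of the summed SERK1 tpm taken by SERK1_2B in percent, leaf on the left and root on the right, with a point for each library and the cultivar names ordered by release, oldest at the top. In root the points of T-9, C-518 and C-271 lie between 20.7% and 30.2%, left of nearly all others, while in leaf the lowest points belong to Pothowar-70 and Dharabi-2011.

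Agreement between root libraries of 1 name was also read from the marker genes outside chromosome 2B, as the percentage with the same on or off state. In Maxipak-65 it was 78.4% for replicates 1 and 2, which both had a low SERK1_2B share, 69.8% for replicates 1 and 3 and 61.7% for replicates 2 and 3. In C-217, replicate 3, the library with the lower share, shared 77.1% with replicate 1 and 72.9% with replicate 2, while replicates 1 and 2 shared 67.0%. In C-217 the lowest agreement was thus between the libraries with the higher shares. Whether the SERK1_2B share goes with the identity of a library was not tested. The root libraries of C-518 shared at least 98.1%, those of T-9 at least 94.3% and those of C-271 90.3% to 93.3%. Over the 33 same-name root pairs that shared at least 97% of states, the SERK1_2B share differed by 2.11 percentage points in the median pair, and over the 33 pairs that shared less it differed by 3.26 points. Limited to the 41 root libraries that matched another of their name, SERK1_2B differed between 16 cultivars with an adjusted p of 9.7e-09 in edgeR's test. In this subset 81% of all genes passed. Its libraries were chosen because they agree within a name, so this p-value cannot be set against that over all root libraries.

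With the year of release, SERK1_2B rose in root by 0.10 log2 units per decade (SE 0.03) in edgeR's test over 24 cultivars, with an adjusted p of 0.0942. It was the only one of the 6 genes to pass the threshold of 0.1, where 0.966% of all 67932 genes tested passed as rising. The adjusted p of SERK1_2B was 0.0119 with DESeq2, where 3.38% of all genes passed as rising, and 0.0284 with limma on log2(tpm + 1). The call was lost in several alternatives: without T-9 the slope was 0.07 with an adjusted p of 0.441, and without replicate 3 it was 0.08 with an adjusted p of 0.394. The share of all genes called in either direction was 2.5%, and it was 0.76% without T-9 and 0.867% without replicate 3. With root libraries that matched another of their name, the slope was 0.11 with an adjusted p of 0.365 over 16 cultivars. Slopes of the other 5 genes in root ran from -0.0046 to 0.029 per decade, with adjusted p-values of at least 0.369 in edgeR's test. In leaf none of the 6 genes passed in edgeR's test, where 0.623% of all genes passed as rising. The unadjusted p of this test was under 0.05 for the 3 BRi1 genes, as it was for 7204 of all 59228 genes tested, in either direction. The BRi1 slopes were 0.12 (BRi1_3A), 0.13 (BRi1_3B) and 0.12 (BRi1_3D) per decade, with adjusted p-values of 0.242, 0.371 and 0.125. With DESeq2 BRi1_3D passed in leaf, with a slope of 0.11 and an adjusted p of 0.0490, where 1.8% of all genes passed as rising. The difference of the slopes, leaf minus root, passed for BRi1_3D alone in edgeR's test, at 0.11 per decade (SE 0.03, adjusted p 0.0865), where 3.16% of all genes passed. The SERK1 slopes in leaf were 0.025 to 0.028 per decade.

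Between leaf cultivars as labelled, all 6 genes passed an adjusted p of 0.1 in edgeR's test over 65 libraries of 23 names, where 27.2% of all 56665 genes tested passed. BRi1_3B had the smallest adjusted p (0.00118), followed by SERK1_2B (0.0119) and BRi1_3A (0.0256), while SERK1_2A, BRi1_3D and SERK1_2D had 0.0576, 0.0716 and 0.0792. Without replicates 1, 2 and 3, 1, 2 and 0 of the 6 genes passed, where 12.3%, 13% and 7.68% of all genes did. With the leaf libraries that matched root libraries of other names left out, 13 libraries of 6 names remained and neither these genes nor any other passed the threshold. No unadjusted p was under 0.05 among the 6 genes, whereas 3134 of all 50171 genes tested had one.

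The leaf levels had a wide range within names as well as between them. Dharabi-2011 had 1.39, 4.96 and 6.50 tpm of BRi1_3A in its 3 leaf libraries and Chakwal-50 had 1.32, 6.03 and 5.50 tpm. In these names the lowest library was near the median leaf library and the others were among the highest of the 24 cultivars. In all leaf libraries of both names 0 of the 15 root markers were detected, with a sum of 0 tpm. The median over the 66 leaf libraries was also 0 tpm. NARC-2009 held the leaf library with the most SERK1_2B, with 38.3, 53.0 and 13.5 tpm in its replicates, and Parwaz-94 had the lowest library, with 4.28, 13.7 and 10.3 tpm. Libraries of either name differed several-fold from each other. The summed SERK1 level had a coefficient of variation of 36.5% over cultivars in leaf and 13.9% in root, and the summed BRi1 level 37.6% in leaf and 9.77% in root. A wider spread in leaf was also general. Over all genes tested, edgeR's common coefficient of variation between libraries of a name was 52.2% in leaf and 26.7% in root.

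The SERK1_2B share of leaf libraries was set beside that of the root libraries they matched on the marker genes outside chromosome 2B. Replicates 1 and 2 of Pothowar-70 in leaf had 30.9% and 27.04% of SERK1 from SERK1_2B, and replicates 1 and 2 of Dharabi-2011 in leaf had 27.2% and 28.2%. All 4 libraries matched the root libraries of C-518, whose share was 21.7% to 30.2%, and 2 of them also replicate 3 of C-271. Over all 229 on or off genes, those of chromosome 2B included, their best root match shared at least 99.1% of states. The root libraries of their own names had SERK1_2B shares of 37.6% to 41.8%. Of the 66 leaf libraries 50 had a matching root library. They fell into separate clusters, so no pooled correlation is given. In 10 leaf libraries the matched root libraries had mean shares of 22.01% to 25.7% and the leaf libraries themselves 27.04% to 39.8%. In the other 40 the matched root libraries had 37.6% to 45.7% and the leaf libraries 36.2% to 58.4%. The leaf share was above the matched root share in 47 of 50 libraries, with gaps as wide as 39.8% in Inquilab-91 replicate 3 against 22.01% in its matched root libraries and 58.4% in Pakistan-13 replicate 2 against 44.0% in its matched root libraries. Within the 40, Pearson's r was 0.666 and Spearman's rho 0.479, and within the 10, r was -0.423 and rho -0.330, given as descriptions since several leaf libraries share the same root libraries and the clusters were set after the values were seen.

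**Figure D5:**
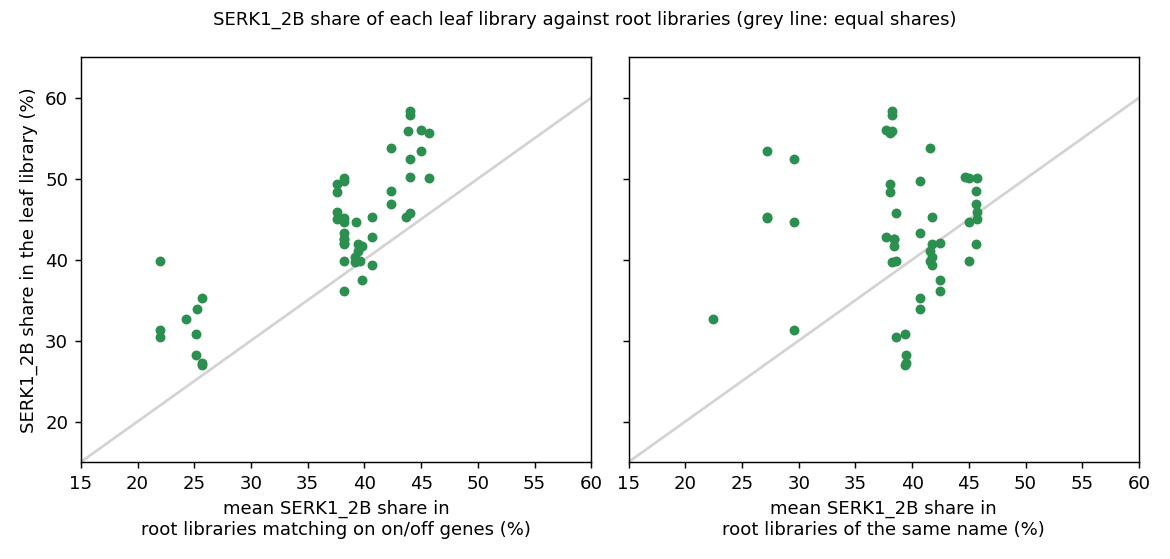
SERK1_2B share of SERK1 in each of 50 leaf libraries against the mean share in root libraries with the same on or off states outside chromosome 2B (left) and in root libraries of the same cultivar name (right), in percent, with a grey line at equal shares. On the left, the 10 leaf libraries matched to root libraries under 30% have 27.04% to 39.8%, while on the right low and high leaf shares stand above the same root shares.

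Some pairs of homoeologues varied together across cultivars and others did not detectably. The strongest relation of the 14 computed was that of SERK1_2A with SERK1_2D in leaf, with r = 0.981 and rho = 0.956 over 24 cultivars (adjusted permutation p 3.5e-05 and 4.7e-05), and r = 0.971 without the 2 farthest cultivars. In root the same pair had r = 0.607 and rho = 0.525 (adjusted permutation p 0.0039 and 0.0163), and r = 0.493 without the 2 farthest. SERK1_2A and SERK1_2B had r = 0.773 and rho = 0.737 in leaf (adjusted permutation p 3.5e-05 and 1.7e-04), and r = 0.191 and rho = 0.243 in root (adjusted permutation p 0.463 and 0.295). Their r without the 2 farthest cultivars was 0.730 in leaf and 0.248 in root. The receptor genes BRi1_3A and BRi1_3D had r = 0.739 and rho = 0.737 in leaf (adjusted permutation p 1.7e-04 and 1.4e-04) and r = 0.845 and rho = 0.877 in root (adjusted permutation p 3.5e-05 and 4.7e-05), with r of 0.735 and 0.864 without the 2 farthest. BRi1_3B followed BRi1_3A less closely. That pair had r = 0.160 and rho = 0.271 in leaf (adjusted permutation p 0.480 and 0.256), where r was 0.454 without Chakwal-97, and r = 0.504 and rho = 0.290 in root (adjusted permutation p 0.0194 and 0.238), where r was 0.238 without the 2 farthest cultivars. BRi1_3B and BRi1_3D had r = 0.182 and rho = 0.560 in leaf (adjusted permutation p 0.463 and 0.0102), where r was 0.747 without Chakwal-97, and r = 0.520 and rho = 0.384 in root (adjusted permutation p 0.0168 and 0.0994), where r was 0.347 without the 2 farthest. SERK1_2B and SERK1_2D had r = 0.801 and rho = 0.805 in leaf (adjusted permutation p 3.5e-05 and 4.7e-05) and r = 0.641 and rho = 0.695 in root (adjusted permutation p 0.00124 and 5.4e-04), with r of 0.828 and 0.658 without the 2 farthest.

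Outside the 6 genes, likeness of pattern was measured as the mean of Pearson's r in leaf and in root over 24 cultivars, among 40405 genes with at least 1 CPM (counts scaled by library size) on average in both tissues. The nearest pattern to any member was that of TraesCS7B02G345300 to SERK1_2B, with r = 0.851 in leaf and 0.907 in root, followed by TraesCS3A02G265100 with 0.854 and 0.866. SERK1_2D was nearest to TraesCS5D02G019400 (mean r 0.829) and TraesCS5B02G492700 (0.824), and SERK1_2A to TraesCS6D02G299600 (0.778) and TraesCS4D02G177000 (0.755). BRi1_3A was nearest to TraesCS7A02G263500 (0.752) and TraesCS5A02G222400 (0.739), and BRi1_3D to TraesCS3D02G172700 (0.698) and again TraesCS7A02G263500 (0.685). BRi1_3B was nearest to TraesCS3B02G423200 and TraesCS3B02G470800 (both 0.77), which lie on the chromosome that was low in the Chakwal-97 leaf library. The nearest genes were taken from a large number and are given as a description.

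The other 89 genes of the study's root architecture list give the setting of these values. Of the 68 that were tested between tissues, 42 were lower and 16 higher in leaf in edgeR's test, where 47.6% and 40.3% of all genes were. Their median log2 fold change was -0.70, against -0.14 over all genes. Between cultivars 30 of 61 tested (49.2%) passed in leaf, against 27.2% of all genes. In root 68 of 77 tested (88.3%) passed, near the 83.6% of all genes. Over the year of release 1 of 63 passed in leaf, as rising, and 1 of 78 in root, as falling. Of all genes 0.655% passed in leaf and 2.5% in root, in either direction.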

How the data were processed

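Leaf and root RNA of wheat seedlings was sequenced as 50-bp single-end reads. Per the study's methods the authors cleaned reads with SOAPnuke, aligned them to the bread wheat reference with HISAT2 and counted them per gene with featureCounts. The deposited counts are whole numbers without normalization, and the deposited TPM values are counts per gene length scaled to a fixed sum. In 161 TPM files the values equalled those computed from counts and lengths within a relative tolerance of 0.0001, and 2 truncated files were not used. The deposited length column gives bases per gene. Cultivar values are TPM of counts summed over libraries. Levels and ratios are over the 24 cultivars of the panel.

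Counts were tested with edgeR 4.0.16 in R 4.3.3 (TMM, filterByExpr, quasi-likelihood F-test), leaf against root and release year on counts summed per cultivar, cultivars on single libraries. Benjamini-Hochberg adjustment covered every gene tested, with a threshold of 0.1. Ratios and relations used permutation tests with 100000 resamples, two-sided, in scipy 1.17.1. Alternatives used DESeq2 1.42.0, limma 3.58.1 with pseudocounts of 1 and 0.1, other filters, single libraries in place of cultivar sums, and libraries left out. The fits were tested on simulated data of 6000 genes with 200 changed. They recovered 200 (leaf against root) at a log2 change of 1, and 125 (cultivars in leaf) and 200 (cultivars in root) at 1.5. At a log2 slope of 0.15 they recovered 172 (year in leaf) and 197 (year in root). False calls numbered 20, 9, 21, 14 and 20 in the same order. Unchanged genes had the same simulated mean share in all samples, so the simulation cannot test the scaling between leaf and root. Libraries counted as matching when at least 97% of on or off genes agreed, a gene being off under 0.15 and on over 2 CPM. Genes named outside the 6 are the 2 nearest in pattern to each. The members and lists were chosen with earlier results of these data known. Values of the leaf-minus-root slope were an alternative chosen after seeing the data. Sequences were not used here.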

Additional observations from a re-analysis of the deposited data

Results flagged for a closer look

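The release slope of BRi1_3D passed the threshold in edgeR's quasi-likelihood test of the interaction, as 3.16% of all genes tested did. It was higher in leaf than in root by 0.11 log2 units per decade, with an adjusted p of 0.0865 in this test over 24 cultivars per tissue. The comparison was added after seeing the data, had no cultivar term and was not repeated in other settings. Leaf release years follow the labelled names, and 47 of 66 leaf libraries matched root libraries of other names only. Some leaf libraries of cultivars outside the 24 exceeded the highest of the 66 leaf libraries, for each gene except BRi1_3B. The share of all genes with such libraries was not computed, so this is not read as a trait of these genes. BRi1_3A, at most 6.50 tpm in the 66, had 9.99 tpm in Hope replicate 2, 6.84 tpm in Sonalika replicate 3, and 10.5 and 8.25 tpm in TJ-83 replicates 1 and 3. BRi1_3D, at most 4.77 tpm in the 66, had 8.01 tpm in Hope replicate 2, 6.24 tpm in Sonalika replicate 2, and 9.45 and 8.36 tpm in TJ-83 replicates 1 and 3. SERK1_2A, at most 32.4 tpm in the 66, had 34.4 tpm in Gabo replicate 1, 47.4 tpm in Hope replicate 3, 34.4 and 38.5 tpm in S-24 replicates 1 and 3, and 48.4 tpm in Sonalika replicate 1. SERK1_2B, at most 53.0 tpm in the 66, had 74.8 tpm in Hope replicate 3 and 59.5 tpm in Sonalika replicate 1. SERK1_2D, at most 30.5 tpm in the 66, had 35.5 tpm in Gabo replicate 1, 32.9 tpm in Hope replicate 3, 38.6 tpm in S-24 replicate 3 and 45.5 tpm in Sonalika replicate 1. These libraries entered only the alternatives with all deposited cultivars, and their differences from the 24 cultivars were not tested by themselves.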

How the results depend on the processing

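Lower BRi1 in leaf kept its direction and its side of the threshold in all fits, at -3.01 to -1.58 for BRi1_3A, -3.43 to -2.23 for BRi1_3B and -2.90 to -1.61 for BRi1_3D, with no value for BRi1_3B at 10 counts in every sample. For SERK1, limma on log2(tpm + 1) gave -0.21 (SERK1_2A), 0.14 (SERK1_2B) and -0.01 (SERK1_2D, -0.0050), limma on log2(tpm + 0.1) gave -0.23, 0.15 and -0.01 (-0.012), and library sizes without TMM gave -0.070 for SERK1_2A and 0.16 for SERK1_2D, a change of scaling by construction. With cultivar as replicate block, leaf over root was -1.99, -2.43 and -1.89 for BRi1_3A, BRi1_3B and BRi1_3D and 0.85, 1.23 and 1.07 for SERK1_2A, SERK1_2B and SERK1_2D, and no block changed a call. Genes differing between cultivars in leaf (6) numbered 3 at an adjusted p of 0.05, where 19.4% of all genes passed, against 27.2% in the main fit. They numbered 0 without libraries matching other root names only, where 0% of all genes passed, and 0 to 2 without 1 replicate (7.68% to 13%). With no filter they numbered 4 (15.2%) and with all cultivars 5 (50.5%). In root (5) they numbered 3 to 5 without 1 replicate, where all genes called went to 55.9% to 68.3%, against 83.6%. The release trend in root (1 gene, with 2.5% of all genes called) went to 0 at 0.05 (1.2%), without T-9 (0.76%) and with matching libraries only (0.806%). It went to 0 to 1 without 1 replicate (0.867% to 2.36%). In leaf, with 0.655% of all genes called, edgeR's test called 0 genes, with 3 at an unadjusted p under 0.05, as were 7204 of all 59228 genes tested. DESeq2 called 1 there (2.09%). The causes were not tested. Ratios past the threshold (5) numbered 7 over single libraries and 4 without replicate 2. In all, 137 alternatives of the main results kept their call, 11 moved a count, 5 turned a direction and 3 lost a call, and for single genes and ratios 287 kept, 35 lost and 3 gained one. Few reads of BRi1 in leaf limit its homoeologue shares.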
